A study of Homo sapiens with 32 samples.

Results

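The regions described here are 364 stretches of the genome at which HNF4α peaks were listed in both replicates of 2 pancreatic cancer cell lines when the P1 isoform α2 was expressed, and in no replicate of either line when the P2 isoform α8 was expressed. Overlapping peaks (by at least 1 bp) of 8 lists were merged into 68655 regions. The 364 were chosen by having a peak in all 4 P1-α2 lists and in none of the 4 P2-α8 lists, and they make up 0.53% of the merged regions. Because the peak calls of these 8 lists selected the regions, every value from them is a description, with no test. The 10 lists of another line, AsPC1, took no part in the selection and carry the tests.

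The data are chromatin immunoprecipitation sequencing (ChIP-seq) of HNF4α in pancreatic ductal adenocarcinoma lines, with 1 peak list per library and 2 libraries per group. In Panc10.05 the isoform was induced with doxycycline at 25 ng/mL for P1-α2 and at 12.5 ng/mL for P2-α8, so isoform and dose differ together there. In BxPC3 both isoforms were induced at 500 ng/mL. Both lines were mapped with an antibody against HNF4α of either promoter (pan-HNF4α), so a peak can come from the induced isoform or from HNF4α that the line makes itself. AsPC1 (labelled ASPC1) carried CRISPR interference with the guide label sgNC, sgP1 or sgP2, where interference was used to lower HNF4α of the P1 or the P2 promoter. Peaks of the pan-HNF4α antibody were listed for all 3 guides, and peaks of a P1-specific antibody for sgNC and sgP2. The labels do not say whether a line is a clone or whether replicates are separate cultures, so the spread between libraries may be technical. For the BxPC3 α8 libraries the title joins α8 with P1 and the genotype label reads P2-α8, and the genotype was used.

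HNF4α is a nuclear receptor that binds DNA as a homodimer at direct repeats of a short half-site and activates genes of liver, gut and pancreatic epithelium. Its gene has a distal promoter, P2, and a proximal promoter, P1. The P1 isoforms carry an N-terminal activation domain that P2 isoforms lack, while the DNA-binding domain is the same. The study's title names growth and identity of the tumour cells as the question.

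At the promoters the 364 regions touched 10 windows of 9 genes, among 22198 windows that run from 250 bases before to 50 bases after a gene start (RefSeq, GRCh38.p14). Letters of the HNF4 half-site pair were searched as CAAAGTCCA, CAAAGTTCA or CAAAGGTCA on both strands. They were present in 3 of these 10 windows, at 2 genes: PDZK1, whose 2 overlapping windows hold the same match, and IGSF23. PDZK1 encodes a scaffold of membrane transporters in kidney and gut, and IGSF23 a member of the immunoglobulin superfamily. The same letters occurred in 0.946% of all 22198 windows, in 2.05% of the 4984 windows touched by any merged region and in 7.25% of the 386 windows touched by regions with a peak in all 8 lists. With 10 windows these shares are a description, and a match is not a measured binding site.

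The sequences before the starts of PDZK1 and IGSF23 are shown because they hold the HNF4 letters, and that of NSUN5 because its region, like that of IGSF23, had P1-antibody peaks in both sgP2 lists of AsPC1. The PDZK1 stretch lies on the minus strand at chr1:145707397-145707650 and reaches 4 bases past the most upstream listed start, to the end of the match. The IGSF23 stretch lies on the plus strand at chr19:44613313-44613562, and the NSUN5 stretch on the minus strand at chr7:73308827-73309076. NSUN5 encodes a methyltransferase of ribosomal RNA. All are written 5′ to 3′ along the gene's strand (RefSeq, GRCh38.p14), with the HNF4 letters in capitals.
PDZK1: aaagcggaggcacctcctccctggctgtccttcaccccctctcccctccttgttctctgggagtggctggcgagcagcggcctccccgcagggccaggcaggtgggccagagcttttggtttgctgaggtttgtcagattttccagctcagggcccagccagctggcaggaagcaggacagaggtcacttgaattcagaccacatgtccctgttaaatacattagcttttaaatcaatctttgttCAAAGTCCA
IGSF23: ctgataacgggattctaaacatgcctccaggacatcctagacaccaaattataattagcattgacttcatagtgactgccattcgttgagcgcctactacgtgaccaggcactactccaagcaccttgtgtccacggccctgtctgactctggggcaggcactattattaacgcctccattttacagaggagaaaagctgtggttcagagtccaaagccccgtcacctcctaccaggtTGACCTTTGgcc
NSUN5: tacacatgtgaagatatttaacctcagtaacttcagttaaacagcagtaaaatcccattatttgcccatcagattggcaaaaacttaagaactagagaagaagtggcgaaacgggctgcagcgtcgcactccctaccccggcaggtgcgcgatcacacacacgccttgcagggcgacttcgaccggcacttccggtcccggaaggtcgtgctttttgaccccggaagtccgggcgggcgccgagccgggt

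The match of PDZK1 begins 5 bases before the upstream start and reads CAAAGTCCA on the gene's strand. The match of IGSF23 begins 12 bases before the start and reads TGACCTTTG there, which is CAAAGGTCA on the other strand. None of the 3 searched forms occurred in the NSUN5 window. Of the other motifs searched, the YOD1 window held the AP-1 letters TGACTCA at 213 bases and the TEAD letters ACATTCC at 88 bases before the start. The AP-1 letters, which read TGAGTCA on the other strand, were found in 4.01% of all windows, and the TEAD letters in 2.69%. YOD1 encodes a deubiquitinating enzyme. The KLF letters CCACCC were in 3 of the 10 windows (37.7% of all windows) and the HNF1 letters GTTAAT in 1, that of IGSF23 (5.55%). The FOXA letters TGTTTAC, the CTCF letters AGGGGGC, the GATA-factor letters AGATAA and the CEBP letters TTGCGCAA or TTGCAAT were in none of the 10, beside 2.85%, 17.5%, 7.91% and 1.73% of all windows.

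Ranks of the peaks at these 3 starts are given for the lists that selected them and for AsPC1. They are percentiles by the authors' fold enrichment within a list, with 100 the strongest peak. The PDZK1 region (chr1:145707119-145707734) stood at 29.6 and 53.0 in Panc10.05 and at 21.5 and 33.9 in BxPC3. In AsPC1 it had a peak in 1 of 6 pan-HNF4α lists, sgNC replicate 1, at percentile 34.0, and none with the P1 antibody. The IGSF23 region (chr19:44613323-44613748) stood at 52.0 and 34.4 in Panc10.05 and at 25.7 and 34.9 in BxPC3. In AsPC1 the IGSF23 region had a peak in all 6 pan-HNF4α lists, at percentiles of 82.3 to 98.3, and in both sgP2 lists of the P1 antibody, at 84.3 and 81.2. The NSUN5 region (chr7:73308640-73309160) stood at 62.6 and 84.2 in Panc10.05 and at 61.6 and 15.8 in BxPC3. In AsPC1 it too had peaks in all 6 pan-HNF4α lists, at 74.3 to 94.1, and in both sgP2 lists of the P1 antibody, at 84.6 and 83.9. Ranks are not compared between the selecting lists and AsPC1, since the lists differ in length and in their lowest −log10 q.

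Against the other combinations of peak calls, the rule picked a thin slice. Of 13956 regions with a peak in all 4 P1-α2 lists, 5630 (40.3%) had a peak in all 4 P2-α8 lists too, and 364 (2.61%) had none. A further 667 were kept out by a single P2-α8 list: 298 and 199 by Panc10.05 replicates 1 and 2, and 87 and 83 by BxPC3 replicates 1 and 2. The excluding peaks of these 667 had a median −log10 q of 17.9 to 24.5, with a lowest of 8.07. The peaks of the 364 in their own 4 lists had medians of 25.8, 36.0, 38.2 and 25.5, with lowest values of 8.90, 8.99, 14 and 9.20. On the other side, 1042 regions had no P2-α8 peak and lacked just 1 P1-α2 list, which was Panc10.05 replicate 1 for 589 of them. The mirror image, a peak in all 4 P2-α8 lists and in no P1-α2 list, held 2 regions.

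**Figure D1:**
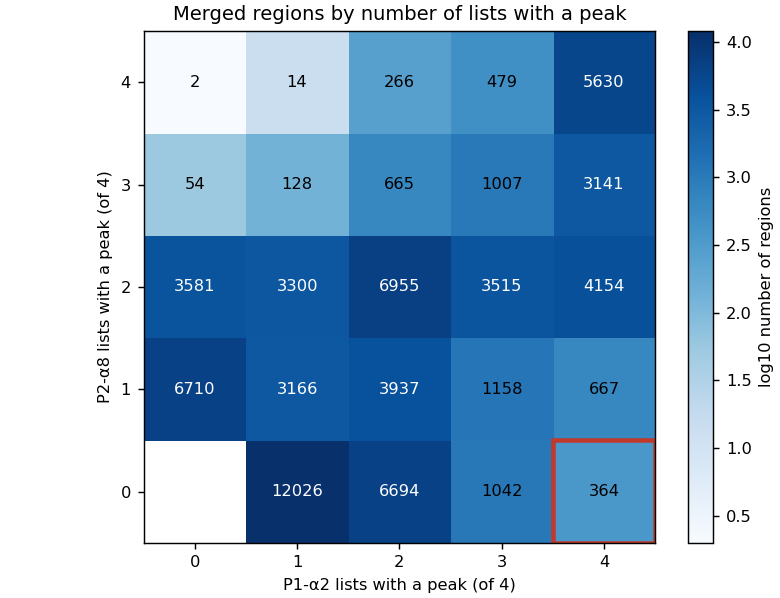
Number of merged regions by how many of the 4 P1-α2 lists (horizontal axis) and of the 4 P2-α8 lists (vertical axis) hold a peak, with colour on a log10 scale and the count in each cell. The outlined cell is the 364 regions, set beside 5630 regions in all 8 lists and 2 in the mirrored corner.

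The lengths of the lists differ in a way that bears on these counts. Panc10.05 had 24828 and 34146 peaks with P1-α2 and 39111 and 33646 with P2-α8, while BxPC3 had 41808 and 33737 with P1-α2 and 12681 and 14666 with P2-α8. In Panc10.05 2.6% of all merged regions (1787) were specific to P1-α2, and in BxPC3 19.3% (13236). The 364 are 20.4% of the Panc10.05 set and 2.75% of the BxPC3 set. When all 8 lists were shortened to the 12681 peaks of highest fold, 98 regions met the rule and 45 met its mirror image. Only 4 of those 98 overlapped one of the 364, so the count and the identity of the regions both depend on list length. Sequencing depth is unknown, and depth, immunoprecipitation and binding cannot be told apart in the length of a list.

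The calls of the 2 lines can be set side by side, although the 364 are themselves the overlap. Of the 1787 regions specific to P1-α2 in Panc10.05, 690 had both BxPC3 P1-α2 peaks, and 364 of these 690 (52.8%) had no BxPC3 P2-α8 peak. Of the 12314 regions with a peak in all 4 Panc10.05 lists and both BxPC3 P1-α2 lists, 3776 (30.7%) had none. Of the regions specific to P2-α8 in Panc10.05 with both BxPC3 P1-α2 peaks, 570 of 1113 (51.2%) had none. The regions of opposite preference in the 2 lines, 570, were thus more numerous than the 364 of shared preference, but they are 10.6% of a larger Panc10.05 set of 5365 specific to P2-α8. In the reverse direction, the regions specific to P1-α2 in BxPC3 with both Panc10.05 P1-α2 peaks lacked both Panc10.05 P2-α8 peaks in 364 of 4637 cases (7.85%), beside 156 of 6019 (2.59%) among regions in all 4 BxPC3 lists.

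The 364 were peaks of middle rank. Their median percentile was 33.2 and 44.5 in Panc10.05 and 51.4 and 44.6 in BxPC3, where regions in all 8 lists stood at 79.3 and 84.7 and at 88.9 and 84.6. The median fold enrichment was 11.02, 13.6, 11.7 and 9.59 in the 4 lists, and 22.0, 29.4, 21.7 and 16.1 for regions in all 8 lists. None reached percentile 90 of either Panc10.05 list, while 2.47% and 0.549% did in BxPC3. Middle ranks were not particular to the 364. Regions specific to P1-α2 in Panc10.05 but not in BxPC3 had medians of 29.1 and 36.0 in the Panc10.05 lists. Those specific in BxPC3 but not in Panc10.05 had 47.8 and 41.1 in the BxPC3 lists. The mean percentile over the 4 lists ran from 9.11 to 77.8 with a median of 42.2, and the SD over a region's 4 lists had a median of 17.6. The merged regions were 329 to 1180 bp wide with a median of 497.5 bp, beside 842 bp for regions in all 8 lists. The latter merge peaks of 8 lists and the 364 those of 4, so the widths are not measured alike.

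The summits of the 2 lines fell close together within these regions. All 4 lay within 100 bp of each other in 83.2% of the 364 and in 85.1% of the regions in all 8 lists. The median distance was 25 bp between the summits of the Panc10.05 replicates and 27 bp between those of the BxPC3 replicates. Between lines it was 22 bp, taken from the mean summit of each line's 2 replicates. Averaging narrows that distance, so it is not to be compared with those between replicates. Regions in all 8 lists had the same order, at 21, 23 and 17 bp. The nearest P2-α8 summit of the same line was a median of 22.7 kb away in Panc10.05 and 39.3 kb in BxPC3, and at the least 0.785 and 0.829 kb.

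**Figure D2:**
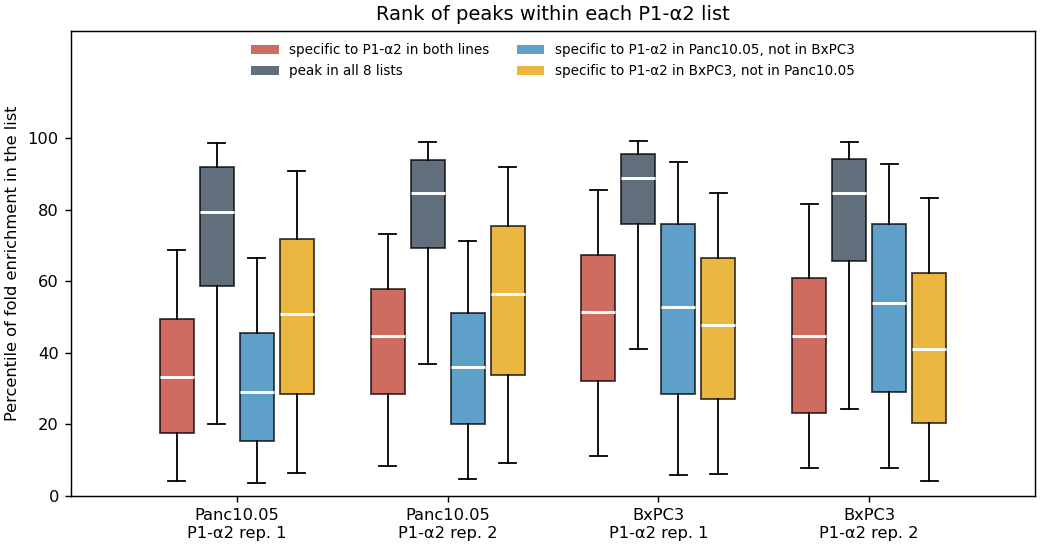
Percentile of fold enrichment of peaks within each P1-α2 list (vertical axis) for 4 sets of regions. Boxes span the quartiles with the median as a line, whiskers the 5th to 95th percentile, and single-line sets are drawn for the regions that have a peak in the list. The 364 regions have medians of 33.2 to 51.4, below the 79.3 to 88.9 of regions with a peak in all 8 lists. Each single-line set lies near the 364 in the lists of its own line.

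The first question for AsPC1 was how many of the 364 had HNF4α peaks in a line in which no isoform was induced. With the pan-HNF4α antibody, a peak was listed at 145 and 104 regions (39.8% and 28.6%) with sgNC, at 98 and 84 (26.9% and 23.1%) with sgP1 and at 95 and 109 (26.1% and 30.0%) with sgP2. Over all merged regions the shares were 24.2% and 16.9%, 15.2% and 13.4%, and 14.3% and 17.1%, so the 364 lay higher in each of the 6 lists. All merged regions include 12026 whose only peak is in a single P1-α2 list, and 6710 whose only peak is in a single P2-α8 list. The rule asks for repeated peaks in the 364, so the selection alone could raise their share. Whether they differ beyond that was not tested. Regions with a peak in all 8 selecting lists had one in 47.2% to 63.2% of cases. The rule gives those regions a peak in more lists, and they ranked higher in the P1-α2 lists (median mean percentile 80.9 against 42.2). The 2 sets thus differ by the selection itself. Averaged over the 6 libraries, the 364 stood at 29.1% and those regions at 53.7%. The difference of -24.6 percentage points (SD 1.58, n = 6 libraries) was lower in 6 of 6 libraries, and a two-sided exact sign-flip permutation test gave p = 0.03125, the lowest value 6 libraries can reach. The libraries come from 1 line with different guides and read the same regions, so they are not independent replicates of the same condition. This p is reached whenever all 6 differences share a sign. It shows that agreement alone, and neither the size of the difference nor the spread between libraries.

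Part of the gap moved with rank. Among regions with a mean percentile under 50, 252 of the 364 and 416 of those in all 8 lists, the difference was -17.1 points, and among those at 50 or more it was -24.0 points. Regions in all 8 lists had AsPC1 peaks in 37.3% to 57.5% of cases at the lower rank and in 48.0% to 63.7% at the higher rank. The 364 had them in 21.4% to 40.5% at the lower rank and in 25.0% to 38.4% at the higher rank. The higher ranked of the 364 had the larger share in 4 of 6 libraries. The split at 50 does not match the sets in rank, with 112 of the 364 and 5214 of the 5630 regions in all 8 lists in the upper class.

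Against the single-line sets the 364 lay close to the Panc10.05 set. The 1423 regions specific to P1-α2 in Panc10.05 but not in BxPC3 averaged 31.2%, a difference of -2.08 points (SD 1.35, n = 6, lower in 6 of 6 libraries, exact permutation p = 0.03125). In each library that gap was within the 95% exact binomial interval of the 364, which ran from 34.8% to 45.1% around 39.8% in sgNC replicate 1. The interval covers counting error only. The 12872 regions specific to P1-α2 in BxPC3 but not in Panc10.05 averaged 13.02%. The 364 lay 16.1 points above them (SD 2.78, n = 6, higher in 6 of 6 libraries, exact permutation p = 0.03125). With Benjamini-Hochberg adjustment over these 3 comparisons the p-value stays 0.03125 for each. It is the lowest value 6 libraries can reach, so it does not tell the differences apart in size.

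**Figure D3:**
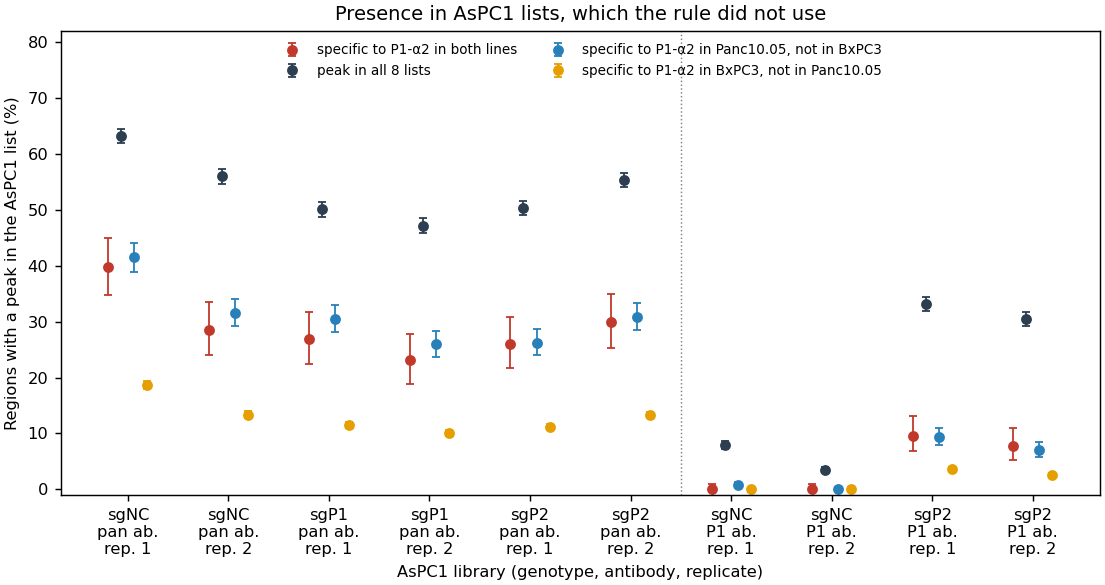
Percent of regions with a peak (vertical axis) in each of the 10 AsPC1 lists, for 4 sets of regions, with 95% exact binomial intervals as bars. In the 6 pan-HNF4α lists the 364 regions lie at 23.1% to 39.8%, below regions in all 8 lists and above the BxPC3 set, and with the P1 antibody they lie at 0% with sgNC and at 9.62% and 7.69% with sgP2.

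With the antibody specific to P1 isoforms, none of the 364 regions had a peak in either sgNC list and 35 (9.62%) and 28 (7.69%) had one in the sgP2 lists. The mean was 8.65% (SD 1.36, n = 2) with sgP2 and 0% with sgNC, a difference of 8.65 points. An exact permutation test gave p = 0.33, the lowest value 2 against 2 libraries can reach (adjusted p = 0.667 over 4 comparisons). The sgNC lists of this antibody held 697 and 260 peaks and the sgP2 lists 5200 and 3916. Over all merged regions the shares were 0.889% and 0.328% with sgNC and 6.02% and 4.99% with sgP2. Regions in all 8 lists showed 7.92% and 3.52% with sgNC and 33.1% and 30.5% with sgP2. The Panc10.05 set lay close to the 364, at 0.703% and 0.14% with sgNC and at 9.35% and 7.10% with sgP2. The BxPC3 set had 0.124% and 0.0466% with sgNC and 3.65% and 2.62% with sgP2.

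Under the guides, the pan-HNF4α share of the 364 averaged 34.2% (SD 7.97, n = 2) with sgNC, 25.0% (SD 2.72, n = 2) with sgP1 and 28.0% (SD 2.72, n = 2) with sgP2. The sgP1 value was 9.20 points lower than the sgNC value (exact permutation p = 0.33), and sgP2 6.18 points lower (p = 0.667, exact). The sgP1 value lay 3.02 points under the sgP2 value (p = 0.667, exact). After adjustment over the 4 comparisons all were at 0.667. None is larger than the spread between the sgNC replicates, which was 39.8% against 28.6%. The sgNC replicate 1 list was also the longest, with 24295 peaks against 11686 to 15118 in the other 5. Without that library the sgP1 difference was -3.57 points and the sgP2 difference -0.549 points. With the 6 lists at equal length they were -2.06 and -0.412 points.

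Counted per region, 204 of the 364 (56.0%) had no pan-HNF4α peak in any AsPC1 list and 56 (15.4%) had one in all 6. The share with no peak was close to the 53.8% of the Panc10.05 set. It was 79.1% in the BxPC3 set and 34.0% in regions in all 8 selecting lists. Across all merged regions 9.52% had a peak in all 6, across regions in all 8 selecting lists 41.3%, in the Panc10.05 set 18.5% and in the BxPC3 set 6.86%. The remaining 104 had a peak in 1 to 5 lists.

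The P1-antibody peaks of the 364 sat where the pan-HNF4α antibody also found AsPC1 peaks. Of the 47 regions with a P1-antibody peak in at least 1 sgP2 list, 39 had a pan-HNF4α peak in all 6 lists and none was without one. A peak in both sgP2 lists and in neither sgNC list was found at 16 of the 364 (4.40%), beside 3.02% of all merged regions and 18.2% of regions in all 8 lists. Of these 16, 15 had a pan-HNF4α peak in all 6 lists. How often P1-antibody peaks of other regions lie at pan-HNF4α peaks was not analysed here. The pan-HNF4α antibody also binds P1 isoforms, so this overlap is not shown to be particular to the 364. The 10 of highest mean percentile in the selecting lists lay in or near CREB5, DIAPH2, DSG1, ACADL, AFF1, TANC2, ANK3, NSUN5, SKAP2 and OSBPL3, and the IGSF23 region was another of the 16. A region is named by the nearest protein-coding gene, which need not be a gene it controls.

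Their values differed in how far the lines and lists lay apart. The DSG1 region, named for a desmosomal cadherin that joins epithelial cells, lay 15.1 kb from the gene at chr18:31302851-31303340. It stood at 73.1 and 52.6 in Panc10.05, at 84.8 and 67.2 in BxPC3, at 56.2 to 87.0 in the 6 AsPC1 pan-HNF4α lists, and at 53.4 and 51.0 in the sgP2 lists of the P1 antibody. The DIAPH2 region, near a formin that assembles actin, lay 24.4 kb away at chrX:97629178-97629653 and stood at 75.8, 77.5, 57.9 and 72.3 in the selecting lists. In AsPC1 it ranged from 84.0 to 97.7 with the pan-HNF4α antibody and was at 77.5 and 36.6 with the P1 antibody. The ANK3 region (chr10:60704397-60704860), within the gene of a membrane-to-cytoskeleton adaptor, stood at 68.7 and 59.8 in Panc10.05 and at 50.5 and 48.5 in BxPC3. All 3 thus ranked at 48.5 or higher in every selecting list.

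The ACADL region (chr2:210189732-210190277), within the gene of an acyl-CoA dehydrogenase of fatty acid oxidation, was the most even of these 10, at 63.6, 62.1, 74.5 and 64.8 in the selecting lists and at 84.0 to 98.2 in the AsPC1 pan-HNF4α lists. The OSBPL3 region (chr7:24946388-24946904), within the gene of a lipid-binding protein, stood at 58.6 and 52.2 in Panc10.05 and at 24.3 and 25.2 in BxPC3, so the lines did not overlap. The CREB5 region (chr7:28350715-28351406), within the gene of a basic leucine zipper transcription factor, stood at 60.2 and 45.6 in Panc10.05 and at 96.1 and 85.1 in BxPC3, the opposite order. It had 4 AsPC1 pan-HNF4α peaks, at 7.32 to 52.3, and P1-antibody peaks at 32.5 and 14.6. The AFF1 region (chr4:86977589-86978175), within the gene of a transcription elongation scaffold, the TANC2 region (chr17:63032024-63032529) and the SKAP2 region (chr7:26699723-26700204), within the gene of a signalling adaptor, lay between 41.0 and 77.3 in all 4 selecting lists and had peaks in all 6 AsPC1 pan-HNF4α lists.

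**Figure D4:**
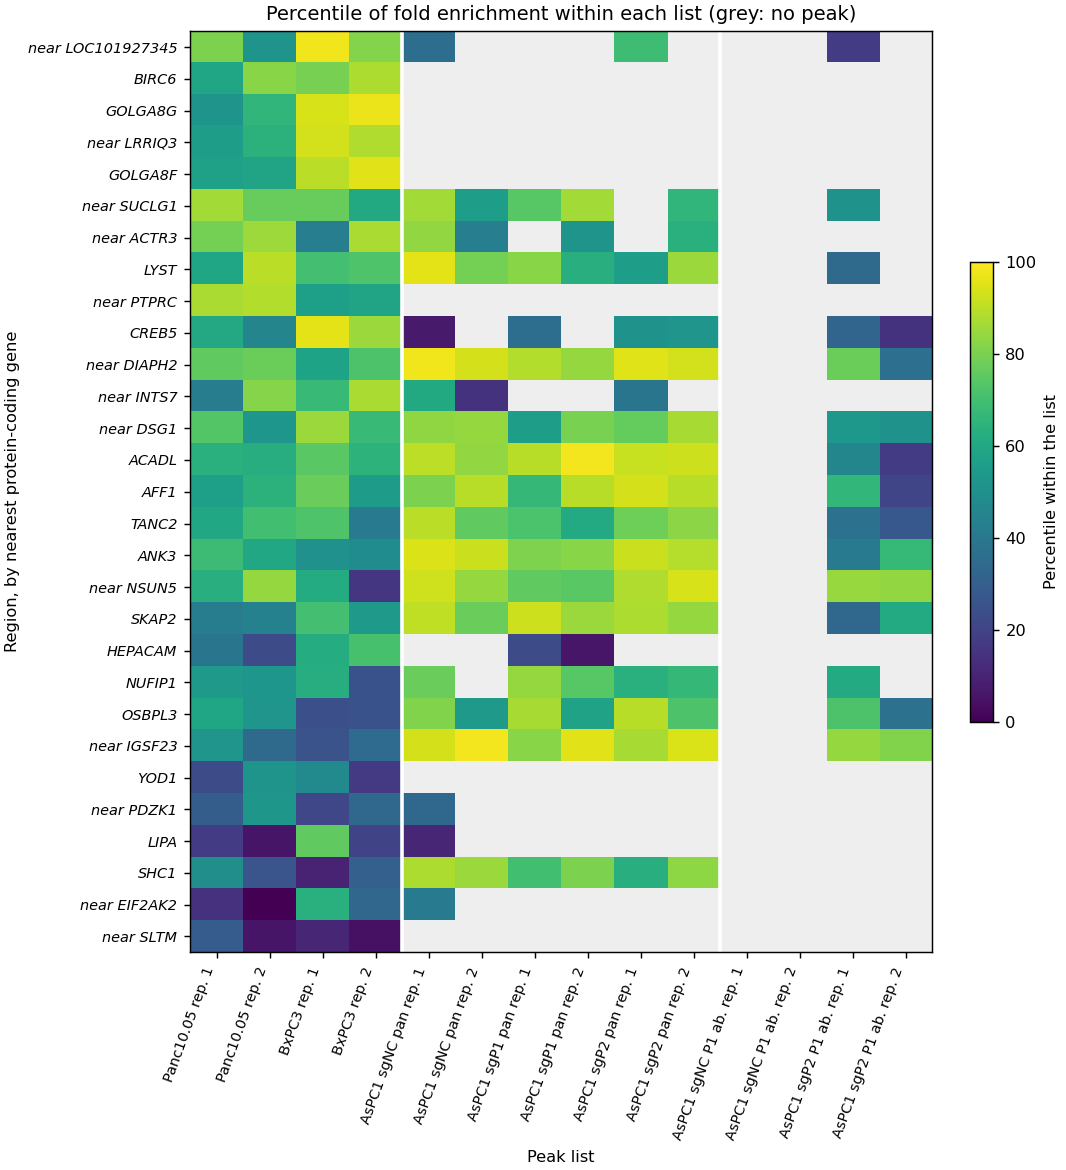
Percentile of fold enrichment within each list (colour, 0 to 100, grey where the list holds no peak) for named regions (rows) and 14 lists (columns). Rows go by nearest protein-coding gene, ordered by mean percentile in the 4 P1-α2 lists. They are the regions named by highest mean percentile, by P1-antibody peaks in both sgP2 lists, or by lying within 1 kb of a start. Regions named only in other ways, such as through the fixed gene lists, are not drawn. The P1-antibody columns of sgNC are empty throughout, and several of the regions of highest rank, such as those at BIRC6 and PTPRC, are grey in all 10 AsPC1 lists.

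The 12 regions of highest mean percentile in the selecting lists were named LOC101927345, BIRC6, GOLGA8G, LRRIQ3, GOLGA8F, SUCLG1, ACTR3, LYST, PTPRC, CREB5, DIAPH2 and INTS7. Of these, 7 had an AsPC1 pan-HNF4α peak in at least 1 list, beside 44.0% of the 364. The other 5 (BIRC6, GOLGA8G, LRRIQ3, GOLGA8F and PTPRC) had no peak in any AsPC1 list, and LYST and DIAPH2 had one in all 6 pan-HNF4α lists. The BIRC6 region (chr2:32453590-32454106), within the gene of a ubiquitin ligase that inhibits apoptosis, stood at 59.1 and 82.4 in Panc10.05 and at 79.6 and 87.9 in BxPC3. The LYST region (chr1:235708486-235709021), within the gene of a regulator of lysosomal trafficking, stood at 58.6 and 89.7 and at 70.2 and 72.6. Its AsPC1 pan-HNF4α peaks ranked from 55.9 to 95.8.

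The region of highest mean percentile lay at chr21:9575357-9575965, 198.9 kb from LOC101927345, and stood at 80.2 and 51.8 in Panc10.05 and at 97.7 and 81.5 in BxPC3. The PTPRC region (chr1:198845648-198846235) lay 88.5 kb from the gene of the leukocyte phosphatase CD45 and stood at 87.5 and 88.5 in Panc10.05 and at 56.5 and 58.5 in BxPC3. The SUCLG1 region lay 963.9 kb from the named gene, a subunit of a citric acid cycle enzyme, so the name marks a place and no more. The GOLGA8G (chr15:28531920-28532496) and GOLGA8F (chr15:28379141-28379605) regions lay within 1 kb of the starts of a pair of golgin genes whose promoter windows share 298 of 300 bases (99.3%). Reads of such near-identical copies could be split or misplaced in alignment, so both are uncertain. Both stood higher in BxPC3 (93.8 and 97.1, 89.5 and 95.6) than in Panc10.05 (51.8 and 65.9, 57.4 and 58.5), and neither had an AsPC1 peak.

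At the level of single regions, few of the 364 had an AsPC1 pan-HNF4α peak in both lists of one guide and in neither list of another. A peak in both sgNC lists and neither sgP1 list was found at 15 (4.12%, beside 2.48% of all merged regions), and in both sgNC lists and neither sgP2 list at 8 (2.198%, beside 1.74%). In regions in all 8 lists the same shares were higher than in the 364, at 5.38% and 2.895%. The regions at THSD4, BLM, ITSN1, NEK4 and EPB41L2 met both descriptions. A peak in both sgP1 lists and neither sgP2 list was found at 5 (1.37%, beside 0.437%), named HEPACAM, HERC1, CCDC192, NQO2 and ASAP1. The opposite, both sgP2 lists and neither sgP1 list, was found at 9 (2.47%, beside 1.0%). For these last patterns regions in all 8 lists had 0.622% (sgP1, not sgP2) and 2.345% (sgP2, not sgP1). These names were listed after their values were seen. All merged regions include those with no AsPC1 peak at all, and with 2 lists a guide no single region has a test.

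Gene starts were scarce among the 364. Distances to starts were not analysed here for the 13 regions on chromosome 8, which leaves 351, and starts of 15842 of 20033 protein-coding genes were used. The middle of the region lay within 1 kb of a listed start in 12 of 351 (3.42%, exact 95% interval 1.78% to 5.90%), beside 6.12% of regions in all 8 lists, 4.26% of the Panc10.05 set, 4.80% of the BxPC3 set and 7.77% of all merged regions. The shares of both single-line sets lie within that interval, which covers counting error only. A low share near starts was thus not particular to the 364. At the other end, 140 (39.9%, 34.7% to 45.2%) lay over 100 kb from any listed start, beside 24.7%, 35.1%, 31.2% and 28.9%. The median distance was 66.0 kb, beside 36.9, 52.8, 46.2 and 40.7 kb. A share of 43.0% lay inside a gene's span, beside 48.8% of regions in all 8 lists and 48.8% of the Panc10.05 set. Regions are not replicates, so these shares carry no test.

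**Figure D5:**
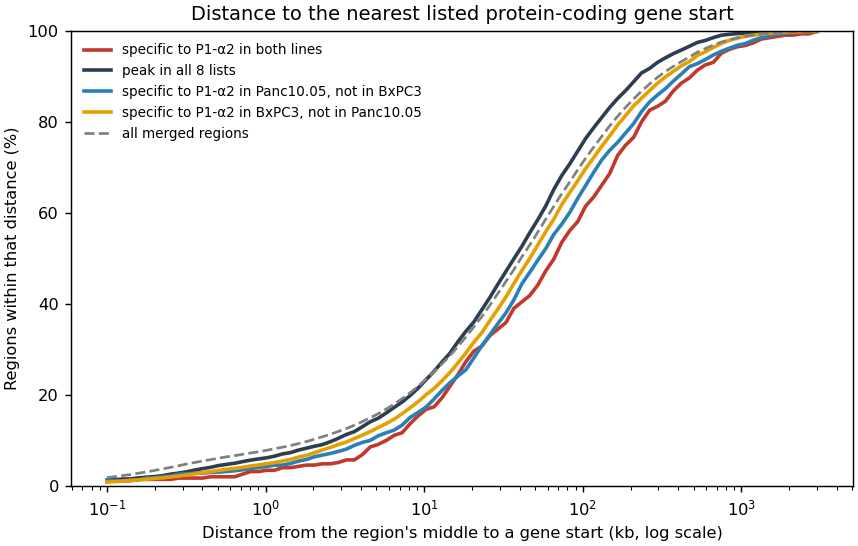
Cumulative percent of regions (vertical axis) whose middle lies within a distance (horizontal axis, kb, log scale) of the nearest listed start of a protein-coding gene, for the 364 regions and 4 other sets, without chromosome 8. The curve of the 364 runs lowest over most distances, with a median of 66.0 kb against 36.9 kb for regions in all 8 lists.

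The 12 regions at listed starts were those of GOLGA8G, GOLGA8F, NSUN5, HEPACAM, NUFIP1, IGSF23, YOD1, PDZK1, LIPA, SHC1, EIF2AK2 and SLTM. The SHC1 region (chr1:154973533-154974658), at a start of the gene of a growth factor receptor adaptor and also over the window of its neighbour CKS1B, stood at 49.4 and 26.3 in Panc10.05 and at 9.70 and 30.5 in BxPC3. It had peaks in all 6 AsPC1 pan-HNF4α lists, at 62.7 to 87.6, and none with the P1 antibody. The NUFIP1 region (chr13:44989182-44989662), shared with the start of GPALPP1, stood at 54.3, 52.6, 62.1 and 25.3 and had 5 AsPC1 pan-HNF4α peaks. The LIPA region (chr10:89250762-89251291), at the gene of lysosomal acid lipase, stood at 17.7 and 5.79 in Panc10.05 and at 75.7 and 20.7 in BxPC3. The EIF2AK2 region (chr2:37157373-37157933), near the gene of the antiviral kinase PKR, was the weakest listed peak of the 364 in Panc10.05 replicate 2, at percentile 0.105. The YOD1 region (chr1:207051007-207051711) stood at 22.8 and 51.6 and at 47.9 and 16.9, and it had no AsPC1 peak.

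Fixed gene lists for pancreatic identity, metabolism and growth were searched for a region within 50 kb of the gene. Of 20033 protein-coding genes 448 (2.24%) had one. In the lists, the counts were 2 of 20 growth control genes, 2 of 17 mesenchymal genes, 1 of 25 classical and gastrointestinal identity genes, 1 of 13 AP-1 and stress genes and 1 of 20 lipid and apolipoprotein genes. No gene of the lists for basal and squamous identity (15 genes), bile acid and xenobiotic handling (21), glucose metabolism (15), junction and adhesion (22) and liver-enriched transcription factors (17) had one. At the all-gene share each list would hold fewer than 1 gene, so counts of 0 to 2 show no list apart from the rest. Regions in all 8 lists lay within 50 kb of 33.6% of all genes and of 9 of the 20 growth control genes.

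The MET region (chr7:116766798-116767338) lay within the gene of the hepatocyte growth factor receptor and stood at 53.4 and 54.6 in Panc10.05 and at 72.9 and 35.1 in BxPC3. It had a peak in all 6 AsPC1 pan-HNF4α lists and in 1 sgP2 list of the P1 antibody. The EGFR region lay 33.9 kb from the gene of the epidermal growth factor receptor and ranked low, at 6.73, 5.29, 11.3 and 44.2, with 3 AsPC1 pan-HNF4α peaks. The ANXA10 region (chr4:168128564-168129038) lay within the gene of an annexin of gastric epithelium and stood at 63.1 and 51.0 and at 54.8 and 73.4, with no AsPC1 peak.

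Of the mesenchymal genes, the FN1 region, within the fibronectin gene, was near the bottom of 3 lists, at 9.93 and 4.07 in Panc10.05 and at 32.1 and 2.05 in BxPC3, with no AsPC1 peak. The COL1A1 region lay 8.09 kb from the collagen gene and nearer to SGCA, at 27.0, 17.5, 34.4 and 44.1, with a peak in all 6 AsPC1 pan-HNF4α lists. The BATF region, 1.74 kb from the gene of an AP-1 family factor, stood at 57.1 and 22.3 and at 57.6 and 28.6. The ACSL5 region, 41.8 kb from the gene of an acyl-CoA synthetase and nearer to TECTB, stood at 23.6 and 44.8 and at 17.7 and 61.3. Neither of the last pair had an AsPC1 peak.

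The 364 were spread over all chromosomes but Y, unevenly. Chromosome 1 held 50 (13.7%) and chromosome 2 held 49 (13.5%), beside 9.49% and 7.25% of all merged regions and 11.8% and 6.22% of regions in all 8 lists. The Panc10.05 set had 12.65% on chromosome 1 and 13.5% on chromosome 2, and the BxPC3 set 10.2% and 6.39%. On chromosome 13 the share was 3.85%, beside 2.15% of all merged regions, 1.69% of regions in all 8 lists, 1.20% of the Panc10.05 set and 2.49% of the BxPC3 set. Chromosomes 9 and 20 held 1.37% and 1.10%, beside 5.16% and 3.48% of all merged regions and 5.79% and 4.51% of regions in all 8 lists. The Panc10.05 set had 3.23% and 1.265% there, and the BxPC3 set 4.55% and 3.53%. The part that chromosome copy number in these lines has in the shares was not tested.

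Some of the regions were neighbours. INTS7, a subunit of the Integrator complex, was the nearest gene of 3 regions on chromosome 1, which lay 7.33 and 67.1 kb apart and had mean percentiles of 58.7, 69.8 and 61.4. LRRC4C also had 3, and EYS, PKN2, ACTR3, LUZP2 and ASB3 had 2 each. Pairs within 100 kb of each other also joined KCNN3 with SHC1, PRSS23 with FZD4, and LRRC36 with ZDHHC1.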

How the data were processed

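HNF4α ChIP-seq was analysed from 18 deposited peak lists, 1 per library, so peaks were called per sample. The 14 input libraries of the 32 were not used. The submitters' processing notes name Bowtie2 2.2.9, MACS2 2.2.7 and the builds hg38 and mm10, with no role given. The read depth and the control used for calling are not given in the sources used here. In the deposited lists the authors give each peak a fold enrichment (a linear ratio), a p-value and a q-value as −log10, and a whole-number score that was not used. The lowest −log10 q is just above 8 in the Panc10.05 and BxPC3 lists and just above 2 in AsPC1, so lists of the induced lines and of AsPC1 were not compared in number. A percentile is a rank by fold within 1 list.

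Peaks sharing at least 1 bp were merged. The code was checked against bedtools 2.31.1 (0 differing calls) and tested on simulated data. AsPC1 shares were compared over libraries by two-sided exact permutation tests (SciPy 1.17.1), with Benjamini-Hochberg adjustment over 4 comparisons between guides. The comparisons with single-line sets were planned as alternatives. Gene names, starts and promoter sequences came from RefSeq tables of GRCh38.p14. Coordinates of regions are those of the lists, 1-based.

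The regions and lists were chosen with earlier results of these data known. Regions were named by rule: the 12 of highest mean percentile, the 10 highest with a peak in both sgP2 lists of the P1 antibody, the 10 highest within 1 kb of a start (all 12 are given), and those within 50 kb of a gene of 10 fixed lists. Replicate numbers were not taken to pair libraries, as the labels state no shared batch. The differences in peak presence between replicates 1 and 2 of a group correlated with those of another group at -0.0674 to 0.0680. Alternatives were other peak cut-offs, equal list lengths, other overlap rules, leaving out each library, and a replicate block. The share of regions with an HNF4 motif at the middle was not analysed here, as no genome sequence was used.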

Additional observations from a re-analysis of the deposited data

How the results depend on the processing

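The count of 364 was 213 with a −log10 q of at least 20 asked of the P1-α2 lists alone and 98 with 8 lists of equal length. With that cut-off asked of all 8 lists the count was 401, but only 213 of those 401 overlapped one of the 364. The identity of the regions thus depends on the cut-off too. Leaving out 1 of the 8 lists gave 424 to 952, with the most without Panc10.05 P1-α2 replicate 1 (952), Panc10.05 P2-α8 replicates 1 (662) and 2 (563) and BxPC3 P1-α2 replicate 2 (642). Fewer lists loosen the rule by construction. The AsPC1 difference to regions in all 8 lists kept its sign under every alternative with that comparison, from -25.4 to -17.1 points, and turned to 16.1 against the BxPC3 set. Leaving out 1 library gave -24.9 to -24.1 points with an exact p of 0.0625, the smallest that 5 libraries allow.

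The 4 differences between guides cannot pass a test with 2 libraries each, so their sizes are given. The sgP2 minus sgNC difference of the P1 antibody was 0 at equal list length (exact p = 1), where the shortest list sets a cut above the ranks of all 364 and leaves none of them. It was 7.69 to 9.62 points without single libraries. Without single libraries the pan-HNF4α differences ran from -14.8 to -3.57 (sgP1 minus sgNC), -11.8 to -0.549 (sgP2 minus sgNC) and -4.95 to -1.10 points (sgP1 minus sgP2). At equal length they were -2.06, -0.412 and -1.65 points. With a replicate block, the pairing of equal numbers, the 4 differences stay at 8.65, -9.20, -6.18 and -3.02 points with an exact p of at least 0.5, the smallest it allows. Within 5 kb in place of 1 kb of a gene start lay 9.12% of the regions. Counting either end of a gene span gave 5.5%, a setting that was added after seeing the data. The motif alternatives were not run, as they need the genome. Read depth is unknown, so a missing peak does not show missing binding.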
